A study of Homo sapiens with 6 samples.

Results

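A set of 32 genes of mitosis and the G2/M transition was followed in Kasumi-1 cells after treatment with interleukin-10 (IL-10): cyclins, mitotic kinases, kinesins, kinetochore proteins and their partners. Members were chosen by symbol, and all 32 were found among the 27576 genes of the deposited table. All 32 also passed the filter on low values, 3 or more libraries at 1 or above, as did 21946 genes in all. Kasumi-1 is a human acute myeloid leukaemia line that carries the RUNX1-RUNX1T1 fusion. The cells were grown in RPMI1640 medium with 20% fetal bovine serum. Treated cells received recombinant human IL-10 at 10 ng/ml for 72 h, and control cells received 0.5% bovine serum albumin (BSA) for the same time. Each group had 3 RNA sequencing libraries, numbered 1 to 3 in the labels. All of them come from this single line, and the labels do not say whether replicates were separate cultures, so the p-values speak of the spread among these 6 libraries alone, and that spread may be technical.

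Entry into mitosis is driven by CDK1 bound to cyclin B, which the phosphatase CDC25C activates. PLK1 and the Aurora kinases then build the spindle, kinetochores tie chromosomes to microtubules, and the spindle checkpoint holds back the anaphase-promoting complex until every chromosome is attached. Most of these genes are transcribed late in the cell cycle, under the MuvB complex with MYBL2 and FOXM1, and their summed RNA is widely used as a measure of how many cells in a sample are dividing. IL-10 signals through STAT3. In bulk RNA, fewer cells in G2 or mitosis and less of these transcripts per cell cannot be told apart.

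Recovered depth was 20750115 to 23077693 reads in IL-10 libraries and 22429270 to 24222897 in control libraries. Each value is a read count over its library's size factor, called a normalised read count below. IL-10 replicate 2 stood apart, at 58.96 on the first principal component (75.4% of the variance), where the other 5 libraries lay between -23.6 and 11.5. Blast markers of this line, RUNX1T1, KIT, CD34, CD33 and MPO, were abundant in every library, at 1584 or more. Of these, KIT and MPO differed between replicates in both groups. KIT stood at 53136, 29296 and 41083 in IL-10 replicates 1 to 3 and at 54533, 38003 and 41215 in control replicates 1 to 3. MPO stood at 139394, 160649 and 67839 with IL-10 and at 151854, 89132 and 66945 in control. The other 2 of the 7 blast markers, at lower values, followed the replicate number. ELANE stood at 159, 4.70 and 16.1 in IL-10 replicates 1 to 3 and at 140, 8.95 and 15.1 in control replicates 1 to 3. PRTN3 stood at 591, 47.0 and 86.4 in IL-10 replicates 1 to 3 and at 566, 18.9 and 81.0 in control replicates 1 to 3. The 14 hepatocyte markers were all above 0 in the replicate 2 libraries of both groups, with ALB at 31.7 in IL-10 replicate 2 and 112 in control replicate 2. In the other 4 libraries 9 or 10 of the 14 were at 0, APOB, APOC3, AFP, FGA, FGB, FGG and TTR in each, and ALB was at most 0.89. The summed level of the 14 was 1330 to 1701 in IL-10 libraries and 1325 to 2012 in control libraries, and SERPINA1, a gene that monocytes also express, made up most of it in every library but control replicate 2, where it was 879 of 2012. Summed levels of 7 airway secretory markers were 135 to 147 in IL-10 libraries and 236 to 288 in control libraries, and those of 5 T cell markers, mostly CD3D, were 1775 to 2635 in IL-10 libraries and 1628 to 2383 in control libraries, with CD3G and CD2 at 0 in control replicate 1. Of 5 fibroblast markers 1 was listed, COL1A1, at 4.70 or less. The part of these other transcripts in the results was not tested.

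Most of the genes share a promoter feature that their choice did not use. The cell cycle genes homology region (CHR), TTTGAA or TTCGAA, is the element that MuvB binds, and CCAAT is bound by NF-Y, a factor often found beside it. RefSeq promoters, 250 bases before to 50 after the start on GRCh38.p14, were at hand for 27 of the 32 genes. AURKA, TTK, UBE2C, TPX2 and BIRC5 were not matched. A CHR match on either strand was present in 21 of the 27 (77.8%), against 19.5% of 27305 genes in the promoter table. CCAAT on either strand was present in 22 (81.5%, against 39.7%), and both in 18 (66.7%, against 7.85%). A CHR match can share its last base with a CCAAT match, and CCAAT matches on opposite strands can share 2 bases. Among 94 further mitosis genes with a promoter, from a list followed below, 57.4% held a CHR match, 62.8% CCAAT and 34.0% both. Among 27 S phase genes with a promoter, 11.1% held a CHR match and 55.6% CCAAT. CENPE and KIF2C held neither, which says only that these letters are not in this window. The 250 bases before the start are shown for PLK1 and CDC20, which had high values in IL-10 replicate 2, and for HMMR and TOP2A, which had low values there; the 4 were chosen after their values were seen. Capitals mark CHR and CCAAT matches. PLK1 lies at chr16:23678639-23678888 (plus strand), CDC20 at chr1:43358731-43358980 (plus), HMMR at chr5:163460382-163460631 (plus) and TOP2A at chr17:40417897-40418146 (minus).
PLK1: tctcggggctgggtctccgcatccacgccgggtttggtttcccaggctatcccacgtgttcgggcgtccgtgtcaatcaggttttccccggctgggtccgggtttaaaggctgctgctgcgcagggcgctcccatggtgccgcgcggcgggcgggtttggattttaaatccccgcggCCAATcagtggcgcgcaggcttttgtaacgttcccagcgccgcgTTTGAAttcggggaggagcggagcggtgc
CDC20: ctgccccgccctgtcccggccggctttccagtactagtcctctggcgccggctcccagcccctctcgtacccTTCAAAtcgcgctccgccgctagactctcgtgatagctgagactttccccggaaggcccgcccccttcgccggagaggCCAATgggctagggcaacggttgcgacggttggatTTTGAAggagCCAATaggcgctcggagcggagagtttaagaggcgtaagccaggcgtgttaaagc
HMMR: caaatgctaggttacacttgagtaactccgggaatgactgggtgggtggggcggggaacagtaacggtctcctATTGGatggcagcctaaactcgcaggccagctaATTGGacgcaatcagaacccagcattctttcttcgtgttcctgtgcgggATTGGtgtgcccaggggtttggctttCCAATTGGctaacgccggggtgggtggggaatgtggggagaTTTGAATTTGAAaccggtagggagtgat
TOP2A: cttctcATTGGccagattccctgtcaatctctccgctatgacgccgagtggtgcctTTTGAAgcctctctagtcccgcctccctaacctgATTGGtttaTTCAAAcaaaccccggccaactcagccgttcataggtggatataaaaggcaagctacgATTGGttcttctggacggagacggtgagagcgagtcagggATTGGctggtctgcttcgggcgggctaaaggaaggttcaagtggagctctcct
All 4 carry both elements: PLK1 has 1 CHR match and 1 CCAAT, CDC20 2 and 2, HMMR 2 and 5, and TOP2A 2 and 4. That the 4 stood on opposite sides in IL-10 replicate 2 follows from how they were chosen. A link between the elements and those values was not tested.

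None of the 32 genes passed the threshold for IL-10 against control, an adjusted p under 0.05 in limma over all genes tested. The adjusted p was 0.982 or above for each, and 0% of all genes passed in the same fit. At an unadjusted p under 0.05 the count was 0 of 32 in limma, where 1.57% of all genes had such a p. It was also 0 in edgeR and in DESeq2, where 1.17% and 0.428% of all genes did, shares at which few or none of 32 genes would be counted. In none of the 32 were the groups free of overlap, against 5.87% of all genes. Log2 fold changes ran from -0.59 for CENPE to 0.26 for PLK1, 13 positive and 19 negative, with a median of -0.10 beside 0.02 for all genes. The split was 6 and 26 with equal library totals, 9 and 23 with quantile normalization and 22 and 10 in pairs 1 and 3 alone, so no direction is given for the set. Without IL-10 replicate 2 the median was 0.00, with 16 positive and 16 negative. The median 95% interval reached 0.45 to either side on the log2 scale. The summed value of the 32 genes was 94504, 82700 and 89264 in IL-10 replicates 1 to 3, and 91363, 97815 and 88554 in control replicates 1 to 3. These sums overlap, and IL-10 replicate 2 had the lowest. That rank rests on TOP2A, the gene of highest value, without which IL-10 replicate 2 would not be lowest. TOP2A stood at 9891 there and at 18939 to 20051 in the other libraries. The sums thus do not show the set as a whole to be lowest in that library.

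**Figure D1:**
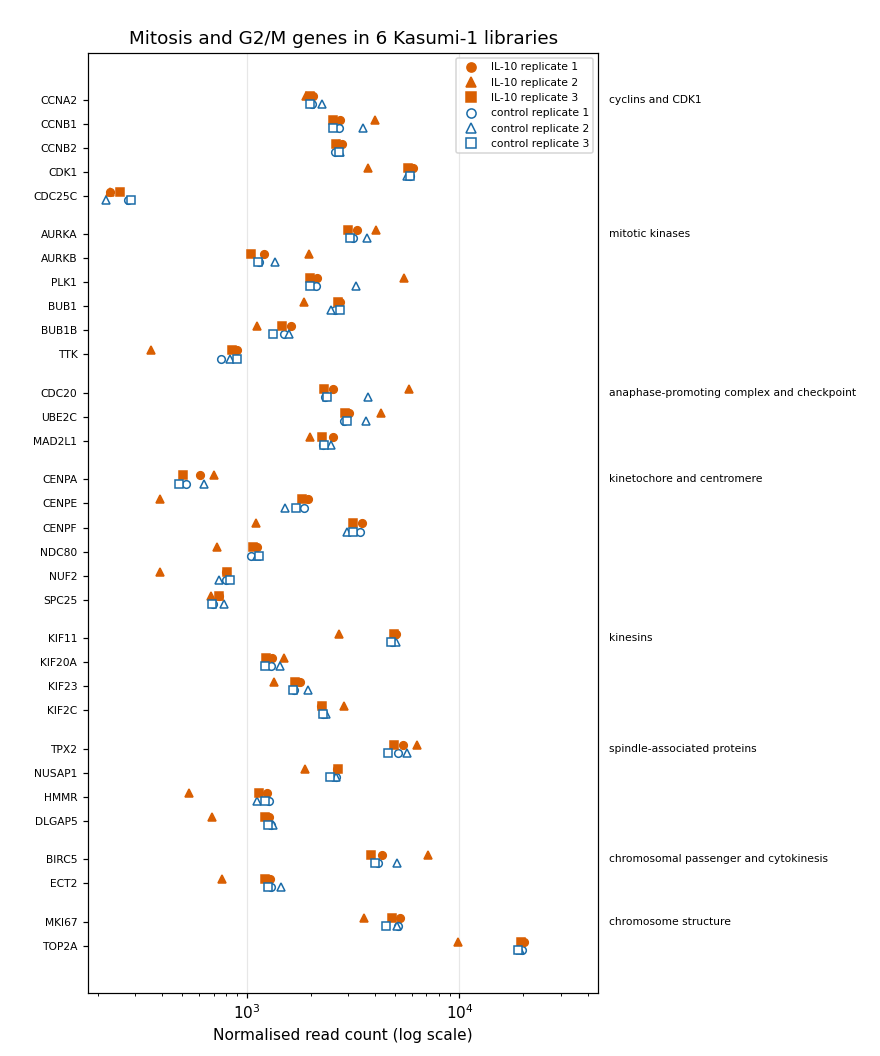
Normalised read counts (log axis) of the 32 genes, by role, in 3 IL-10 libraries (filled) and 3 control libraries (open), with a marker shape for each replicate number. IL-10 replicate 2 (filled triangles) was the lowest of the 6 libraries for 19 genes and the highest for 11.

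Among the cyclins and CDK1, the 5 log2 fold changes lay between -0.20 and 0.07 and none passed. CDK1 (ENSG00000170312, chromosome 10, 60778331 to 60794852), the kinase that drives entry into mitosis, stood at 6051, 3713 and 5733 in IL-10 replicates 1 to 3, and at 5858, 5667 and 5865 in control replicates 1 to 3. IL-10 replicate 2 was low and the other 5 libraries lay together. The mean was 5166 ± 1268 with IL-10 and 5797 ± 112 in control (SD, n = 3 each), a log2 fold change of -0.20 (95% interval -0.66 to 0.27, adjusted p = 0.982 in limma). Cyclin B1, the partner of CDK1, is encoded by CCNB1, which stood at 2760, 4024 and 2560 with IL-10 and 2732, 3538 and 2557 in control. Both replicate 2 libraries were high for CCNB1. CCNB2, the second B-type cyclin, was the steadiest of the 32, at 2641 to 2799 with IL-10 and 2599 to 2738 in control. CCNA2, the cyclin of S phase and G2, ranged from 1896 to 2052 with IL-10 and from 1990 to 2268 in control.

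CDC25C (chromosome 5, 138285265 to 138338355), the phosphatase that switches CDK1 on, had the lowest values of the set. It stood at 229, 228 and 255 in IL-10 replicates 1 to 3 and at 277, 219 and 287 in control replicates 1 to 3. The groups overlapped only through control replicate 2, the lowest of the 6 libraries. The log2 ratios of pairs 1, 2 and 3 were -0.27, 0.06 and -0.17, the largest of the set in size in pairs 1 and 3. Its reads were the fewest of the set, and counting error alone gave its ratio in pair 1 an SD of 0.13, the largest of the set. In a fit of pairs 1 and 3 alone with the replicate number as a block, its unadjusted p was 0.0361 and its adjusted p 0.999 in limma. BUB1B was the other gene under 0.05 unadjusted there (log2 fold change 0.12, unadjusted p 0.0377, adjusted p = 0.999 in limma), where 4.23% of all genes had such a p, so the count is near the background. The adjusted threshold was passed by 0.0542% of all genes and none of the 32 in that fit.

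None of the 6 mitotic kinases passed, with log2 fold changes between -0.35 and 0.26. AURKA (ENSG00000087586, chromosome 20, 56369389 to 56392337), the centrosome and spindle kinase, stood at 3294, 4074 and 2997 with IL-10 and at 3175, 3701 and 3053 in control. AURKB, the kinase of the chromosomal passenger complex, stood at 1211, 1964 and 1053 with IL-10 and at 1146, 1361 and 1134 in control. PLK1 (ENSG00000166851, chromosome 16, 23677656 to 23690367), which acts from mitotic entry to cytokinesis, stood at 2141, 5517 and 1983 with IL-10 and at 2113, 3281 and 1987 in control. All 3 genes were highest in IL-10 replicate 2 and next highest in control replicate 2. For PLK1 the means were 3214 ± 1996 with IL-10 and 2460 ± 713 in control (SD, n = 3 each), a log2 fold change of 0.26 (-0.60 to 1.11, adjusted p = 0.982 in limma), or 0.01 in pairs 1 and 3 alone.

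The spindle checkpoint kinases had their lowest value in IL-10 replicate 2. TTK, which starts checkpoint signalling at kinetochores, stood at 900, 356 and 852 with IL-10 and at 756, 835 and 905 in control, a log2 fold change of -0.35 (-1.10 to 0.39). It was 0.08 in pairs 1 and 3 alone. BUB1, a checkpoint kinase that recruits shugoshin, stood at 2751, 1863 and 2682 with IL-10 and at 2609, 2484 and 2753 in control. BUB1B, which encodes the checkpoint protein BUBR1, stood at 1614, 1121 and 1464 with IL-10 and at 1500, 1588 and 1338 in control. Without IL-10 replicate 2, the IL-10 values of BUB1 and TTK lay within the range of the control values.

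Of the genes of the anaphase-promoting complex and its checkpoint, 3 were followed. UBE2C (ENSG00000175063), its ubiquitin-conjugating enzyme, stood at 3026, 4302 and 2900 with IL-10 and at 2857, 3630 and 2968 in control, a log2 fold change of 0.10 (-0.35 to 0.55, adjusted p = 0.982 in limma). CDC20 (ENSG00000117399, chromosome 1, 43358955 to 43363203), its activator at the onset of anaphase, stood at 2545, 5799 and 2317 with IL-10 and at 2336, 3720 and 2391 in control. Both were high in the replicate 2 libraries, as PLK1 was. For CDC20 the means were 3553 ± 1948 with IL-10 and 2815 ± 784 in control (SD, n = 3 each), a log2 fold change of 0.24 (-0.55 to 1.03), or 0.04 in pairs 1 and 3 alone. MAD2L1, the checkpoint protein MAD2 that CDC20 is held by, was lowest in IL-10 replicate 2, at 2539, 1980 and 2255 with IL-10 and 2276, 2488 and 2325 in control.

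Kinetochore and centromere genes had the widest range of the roles, from -0.59 to 0.14. CENPE (ENSG00000138778, chromosome 4), a kinesin that carries chromosomes to the spindle equator, stood at 1952, 393 and 1825 in IL-10 replicates 1 to 3 and at 1864, 1512 and 1706 in control replicates 1 to 3. IL-10 replicates 1 and 3 were above or within the control range and IL-10 replicate 2 was far below it. The means were 1390 ± 866 with IL-10 and 1694 ± 177 in control (SD, n = 3 each), a log2 fold change of -0.59 (-1.79 to 0.60, adjusted p = 0.982 in limma) that was 0.08 in pairs 1 and 3 alone. CENPF (ENSG00000117724, chromosome 1), a large protein of the outer kinetochore, stood at 3472, 1113 and 3159 with IL-10 and 3418, 2969 and 3149 in control. Its log2 fold change was -0.46 (-1.33 to 0.40), or 0.01 in pairs 1 and 3.

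The NDC80 complex, which binds microtubules, was represented by NDC80, NUF2 and SPC25. NDC80 stood at 1124, 723 and 1071 with IL-10 and at 1049, 1126 and 1149 in control. NUF2 stood at 797, 393 and 807 with IL-10 and at 799, 741 and 839 in control. SPC25 varied least of the 3, at 746, 679 and 744 with IL-10 and at 693, 780 and 690 in control. These 3 subunits of a single complex were thus unlike in IL-10 replicate 2, with log2 deviations from the mean of the other 5 libraries of -0.61, -1.02 and -0.10. CENPA, the centromeric histone, had the smallest p among genes with a positive value (unadjusted 0.482). It stood at 602, 702 and 505 with IL-10 and at 520, 634 and 481 in control, a log2 fold change of 0.14 (-0.30 to 0.58). Its log2 ratio was 0.21, 0.15 and 0.07 in pairs 1, 2 and 3. CCNB1, KIF20A and TPX2 also had a positive ratio in each pair, and NUF2, HMMR, DLGAP5 and ECT2 a negative one, a grouping made after the values were seen.

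Of the 4 kinesins, KIF11 (ENSG00000138160, chromosome 10), the motor that separates the spindle poles, stood at 5031, 2715 and 4927 with IL-10 and at 4826, 5065 and 4761 in control. Its log2 fold change was -0.26 (-0.81 to 0.28, adjusted p = 0.982 in limma), or 0.05 in pairs 1 and 3 alone. KIF23, the cytokinesis kinesin of the central spindle, was also lowest in IL-10 replicate 2, at 1779, 1340 and 1685 with IL-10 and 1680, 1955 and 1656 in control. KIF20A, which carries the passenger complex to the midzone, and KIF2C, which removes microtubules at centromeres, were highest there. KIF20A stood at 1318, 1494 and 1229 with IL-10 and at 1301, 1437 and 1217 in control, and KIF2C at 2234, 2886 and 2267 with IL-10 and at 2281, 2375 and 2284 in control. In pairs 1 and 3 the log2 ratios of the 4 kinesins lay between -0.03 and 0.08.

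TPX2 (ENSG00000088325), which activates AURKA on the spindle, stood at 5416, 6301 and 4913 with IL-10 and at 5142, 5652 and 4642 in control. Its log2 ratio was 0.08, 0.16 and 0.08 in pairs 1, 2 and 3, and its fold change 0.10 (-0.27 to 0.48, adjusted p = 0.982 in limma). The IL-10 library was thus slightly above its control in each pair, while the groups overlapped. HMMR, a spindle-pole protein, stood at 1247, 538 and 1150 with IL-10 and at 1273, 1117 and 1216 in control. DLGAP5, which stabilises spindle microtubules, stood at 1278, 690 and 1217 with IL-10 and at 1301, 1337 and 1266 in control. Both genes had small negative ratios in pairs 1 and 3 (-0.03 and -0.08 for HMMR, -0.03 and -0.06 for DLGAP5) beside -1.05 and -0.95 in pair 2. NUSAP1, a spindle protein that binds chromatin and microtubules, stood at 2670, 1874 and 2702 with IL-10 and at 2629, 2628 and 2461 in control.

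BIRC5 (ENSG00000089685), which encodes the passenger protein survivin, stood at 4331, 7090 and 3826 with IL-10 and at 4136, 5093 and 4029 in control. Its log2 fold change was 0.16 (-0.39 to 0.70), or -0.00 in pairs 1 and 3. ECT2, the exchange factor that starts the cleavage furrow, had the smallest p of the 32 genes (0.164 unadjusted, adjusted p = 0.982 in limma). It stood at 1288, 766 and 1219 with IL-10 and at 1307, 1453 and 1260 in control, a log2 fold change of -0.33 (-0.82 to 0.16). IL-10 replicate 1 lay within the control range, and in pairs 1 and 3 alone the log2 fold change was -0.03.

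Of the chromosome proteins neither passed. TOP2A (ENSG00000131747, chromosome 17, 40388516 to 40417950), the topoisomerase that untangles sister chromatids, stood at 20051, 9891 and 19525 with IL-10 and at 19703, 19346 and 18939 in control. The 5 libraries other than IL-10 replicate 2 lay between 18939 and 20051. Its log2 fold change was -0.30 (-0.91 to 0.31), and 0.03 in pairs 1 and 3. MKI67, which encodes the Ki-67 antigen of dividing cells, stood at 5257, 3551 and 4826 with IL-10 and at 5166, 5078 and 4523 in control, a log2 fold change of -0.13 (-0.55 to 0.29).

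**Figure D2:**
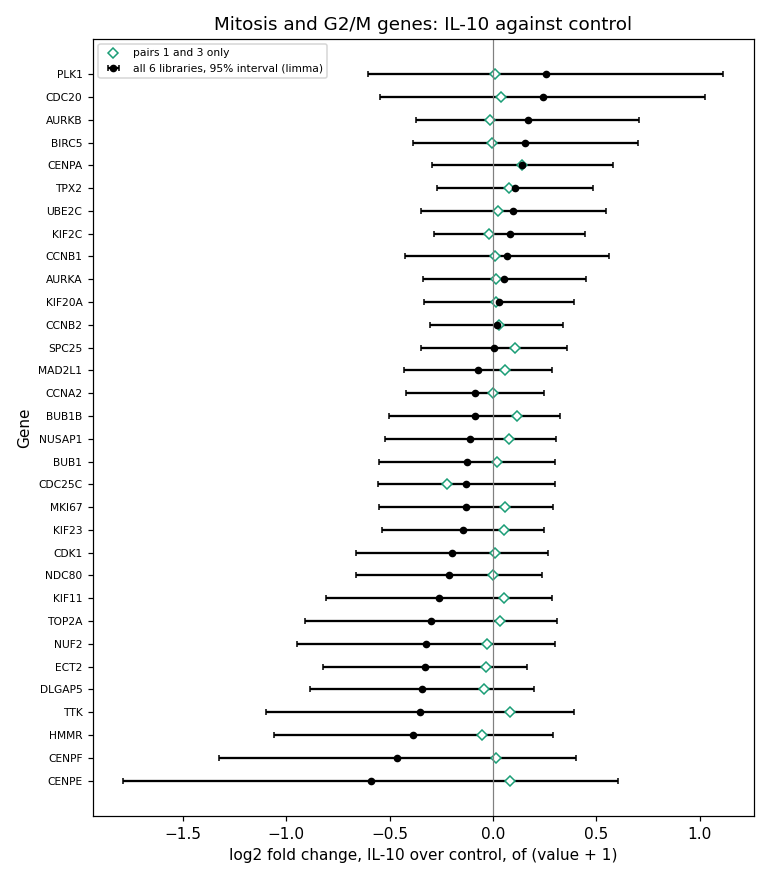
Log2 fold change of IL-10 over control for the 32 genes, with the 95% interval of limma over all 6 libraries (black) and the value from pairs 1 and 3 alone (open diamonds). Every interval spans 0, and the values from pairs 1 and 3 lie between -0.22 and 0.14.

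Levels between genes were compared per kilobase of the principal GENCODE 29 transcript. UBE2C was the highest, at 4011 normalised reads per kilobase with IL-10 and 3708 in control, followed by TOP2A, at 2864 with IL-10 and 3357 in control, and CDK1, at 2700 with IL-10 and 3030 in control. CDC20 and BIRC5 came next with IL-10, at 2000 and 1932, and CCNB2 and BIRC5 in control, at 1729 and 1681. The IL-10 mean of CDC20 was raised by replicate 2, at 5799 normalised reads beside 2545 and 2317 in replicates 1 and 3. The lowest were CDC25C, at 111 with IL-10 and 123 in control, and CENPE, at 161 with IL-10 and 197 in control. Neighbours such as AURKA and TPX2, at 1537 and 1585 with IL-10 and 1472 and 1471 in control, differed by less than their spread between libraries.

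Libraries of the same number were close in pairs 1 and 3. In pair 1 the 32 log2 ratios of IL-10 over control lay between -0.27 and 0.25, with a median of 0.06, 26 positive and 6 negative. In pair 3 they lay between -0.17 and 0.13, with a median of -0.02, 13 positive and 19 negative. Of 11604 tested genes averaging 50 or more, 6049 were positive and 5555 negative in pair 1, and 5710 and 5894 in pair 3. Genes of the same pair of libraries are not independent, and these splits were not tested. None of the 32 reached 1.5-fold in either pair. Of 11605 genes averaging 50 or more, 0.233% were higher and 0.379% lower by 1.5-fold or more in pair 1, and 0.31% and 0.112% in pair 3. Counting error alone gave a log2 ratio in pair 1 an SD of 0.04 at the median gene and 0.13 at most.

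Ratios were wider in pair 2. There 2 genes were at least 1.5-fold higher with IL-10, PLK1 and CDC20, where 21.8% of the 11605 genes were. At least 1.5-fold lower were 11 of the 32, where 13.3% of the 11605 genes were: CENPE, CENPF, TTK, HMMR, TOP2A, DLGAP5, ECT2, NUF2, KIF11, NDC80 and CDK1. The median ratio in pair 2 was -0.37, and CENPE had the largest, -1.94. IL-10 replicate 2 held the lowest value of all 6 libraries for 19 of the 32 genes, the highest for 11 and a middle value for CCNB2 and CDC25C. It was lowest for 33.7% and highest for 46.0% of the 11605 genes.

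GC content of the transcript, which the choice of genes did not use, ordered the ratios of pair 2. Across the 32 genes the Spearman correlation between GC content and the log2 ratio of pairs 1, 2 and 3 was 0.11, 0.88 and 0.02, and for transcript length it was -0.15, -0.57 and 0.28. Genes measured in the same library are not independent, and these values are a description. Over 11576 genes averaging 50 or more, with a known GC content, the Spearman correlation was -0.19, 0.84 and -0.02. The set was low in GC, with a median of 43.0% (35.3% to 57.9%), beside 48.9% in genes averaging 50 or more.

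**Figure D3:**
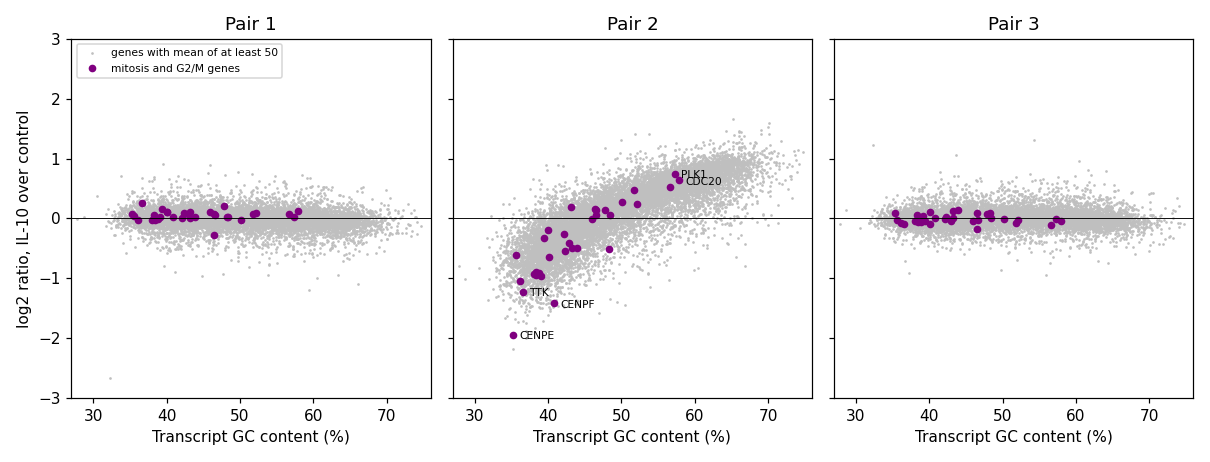
Log2 ratio of IL-10 over control in pairs 1, 2 and 3 against transcript GC content, for the 32 genes (purple) and for genes averaging 50 or more (grey). In pair 2 the ratios run from -1.94 for CENPE to 0.75 for PLK1, while in pairs 1 and 3 they stay between -0.27 and 0.25.

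By GC class, all 10 genes under 40% GC lay below the mean of the other 5 libraries in IL-10 replicate 2, with a median log2 deviation of -0.93, beside -0.69 for all genes of that class. The 10 were CDK1, TTK, MAD2L1, CENPE, NUF2, KIF11, HMMR, DLGAP5, ECT2 and TOP2A. Of the 9 genes from 40% to under 45%, 8 lay below and CCNB1 above, with a median of -0.42 beside -0.31. Of the 7 genes from 45% to under 50%, 5 lay above and 2 below, with a median of 0.20 beside 0.05. The 2 below were MKI67, at 48.3% GC with -0.48, and CDC25C, at 46.5% with -0.14. All 6 genes of 50% or more, AURKB, PLK1, CDC20, UBE2C, KIF2C and BIRC5, lay above, with a median of 0.74 beside 0.58. Each class holds few genes.

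Stretches of coding sequence show the base content of the genes at the extremes of these values. For the 2 genes with the highest and the 2 with the lowest deviation in IL-10 replicate 2, chosen by those values, the initial 120 bases of the longest coding exon of the principal transcript are given, from GENCODE 29 on GRCh38, with G and C in capitals. PLK1 is from exon 1 of 10 (chr16:23678933-23679052, plus strand), CDC20 from exon 7 of 10 (chr1:43360733-43360852, plus), CENPE from exon 22 of 49 (chr4:103159205-103159324, minus) and CENPF from exon 12 of 20 (chr1:214639921-214640040, plus).
PLK1: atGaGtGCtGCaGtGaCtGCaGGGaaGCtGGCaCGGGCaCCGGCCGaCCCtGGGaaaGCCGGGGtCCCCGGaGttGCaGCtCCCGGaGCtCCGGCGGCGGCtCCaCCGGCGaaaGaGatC
CDC20: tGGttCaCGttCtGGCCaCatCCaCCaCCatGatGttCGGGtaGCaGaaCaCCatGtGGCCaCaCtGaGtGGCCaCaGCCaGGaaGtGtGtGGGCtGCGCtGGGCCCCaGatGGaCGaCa
CENPE: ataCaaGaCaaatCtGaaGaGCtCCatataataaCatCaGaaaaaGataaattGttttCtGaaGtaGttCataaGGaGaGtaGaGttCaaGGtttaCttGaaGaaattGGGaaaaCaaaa
CENPF: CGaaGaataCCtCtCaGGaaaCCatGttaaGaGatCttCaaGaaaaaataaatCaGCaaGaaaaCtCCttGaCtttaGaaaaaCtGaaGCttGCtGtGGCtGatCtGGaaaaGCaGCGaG
G and C make up 70% and 60% of the stretches of PLK1 and CDC20 and 30% and 39.2% of those of CENPE and CENPF. Over the whole transcripts GC content was 57.3%, 57.9%, 35.3% and 40.8%, and the log2 deviations of IL-10 replicate 2 were 1.29, 1.15, -2.17 and -1.54.

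A smooth trend on transcript GC content and length was then removed from each library. The median absolute deviation of the 32 genes in IL-10 replicate 2 was 0.51 before and 0.30 after. In genes averaging 50 or more it was 0.49 before and 0.28 after. The trend was fitted to these same libraries, so a smaller deviation follows in part from the fit. CDK1 had -0.65 before and 0.19 after, ECT2 -0.76 and -0.04, and TOP2A -0.98 and -0.30. In all, 25 of the 32 genes were nearer to the other 5 libraries after correction and 7 were farther from them. CENPE had -2.17 before and -1.19 after, CENPF -1.54 and -0.90, and PLK1 1.29 and 0.82. Among the 7, CCNB1 had 0.52 before and 0.86 after, SPC25 -0.10 and 0.45, MAD2L1 -0.26 and 0.40, CCNA2 -0.12 and 0.30, AURKA 0.33 and 0.43, TPX2 0.29 and 0.41, and CCNB2 0.01 and 0.14. The Spearman correlation with GC content was 0.86 before and 0.58 after, against 0.77 and 0.03 in genes averaging 50 or more. With this correction the median log2 fold change of IL-10 over control was 0.01, with 16 positive and 16 negative, and 0 of 32 passed. With the replicate number as a block as well, CENPF had an unadjusted p of 0.0496 (log2 fold change -0.27, adjusted p = 0.912 in limma). It was the only one of the 32 under 0.05 there, where 4.13% of all genes were.

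**Figure D4:**
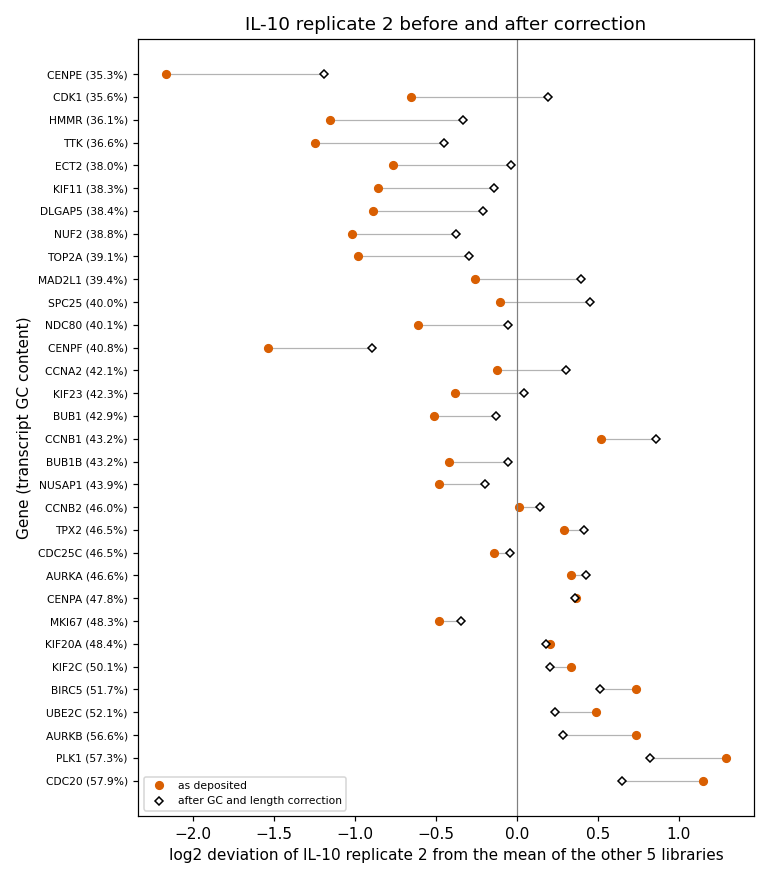
Log2 deviation of IL-10 replicate 2 from the mean of the other 5 libraries for the 32 genes, ordered by transcript GC content, as deposited (filled) and after correction for GC content and length (open). All 10 genes under 40% GC lie below 0 as deposited, and CENPE moves from -2.17 to -1.19.

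Control replicate 2 differed from the other controls too, for most genes by less than IL-10 replicate 2 differed from the other IL-10 libraries. CCNA2, CCNB2, SPC25 and CDC25C went the other way, CDC25C with -0.36 in control and -0.08 with IL-10. For 11 genes IL-10 replicate 2 was the highest library and control replicate 2 the next: CCNB1, AURKA, AURKB, PLK1, CDC20, UBE2C, CENPA, KIF20A, KIF2C, TPX2 and BIRC5. Against the mean of control replicates 1 and 3, the log2 deviation of control replicate 2 was 0.68 for PLK1, 0.65 for CDC20 and 0.42 for CCNB1. It was -0.24 for CENPE, -0.16 for HMMR and -0.36 for CDC25C. In 20 of the 32 genes control replicate 2 was the highest control, against 44.4% of genes averaging 50 or more. The Spearman correlation of this deviation with GC content was 0.64 across the 32 genes and 0.16 across genes averaging 50 or more. The replicate 2 libraries of both groups also held the hepatocyte transcripts given above, whose part in these values was not tested.

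The wider process was followed in 108 further mitosis genes, all of which passed the filter. None passed the threshold in limma, edgeR or DESeq2, and 0 had an unadjusted p under 0.05 in any of the 3, against 1.57%, 1.17% and 0.428% of all genes. The median log2 fold change was 0.04 for 21 G2/M regulators, -0.02 for 19 genes of the anaphase-promoting complex, -0.07 for 36 kinetochore and checkpoint genes, -0.06 for 24 passenger, kinesin and cytokinesis genes and -0.02 for 8 condensin genes. Median log2 ratios in pairs 1, 2 and 3 were 0.04, -0.10 and -0.01, and the Spearman correlation with GC content in pair 2 was 0.89. The groups were free of overlap for 4 of the 108, where 5.87% of all genes were: CENPL and NCAPD2 were higher with IL-10, and ARPP19 and DSN1 lower.

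The genes of smallest p in each of these lists had wide values in pair 2 as well. UBE2S, the chain-extending enzyme of the anaphase-promoting complex, stood at 5484, 13340 and 4902 with IL-10 and 5049, 6950 and 5091 in control, a log2 fold change of 0.34 (-0.46 to 1.13, adjusted p = 0.982 in limma). E2F1, a transcription factor of the cell cycle, had 0.29, NCAPD2, a condensin subunit, 0.14, and SPC24, the partner of SPC25, 0.14. ASPM, a spindle-pole protein, stood at 2732, 859 and 2403 with IL-10 and 2692, 2629 and 2393 in control, a log2 fold change of -0.53 (-1.39 to 0.34). SMC2, a condensin subunit, had -0.38, KNL1, the kinetochore scaffold, -0.36, CDC27, a subunit of the anaphase-promoting complex, -0.20, and LIN9, of the MuvB complex, -0.26. For each of these 9 genes the largest of the 3 pair ratios in size was that of pair 2. CDCA8, the passenger protein borealin, stood at 1332, 1966 and 1316 with IL-10 and at 1189, 1456 and 1146 in control, a log2 fold change of 0.27 (-0.20 to 0.73) with ratios of 0.16, 0.43 and 0.20 in pairs 1, 2 and 3.

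S phase genes, the nearest comparison, had a higher median in pair 2. Of 32 S phase genes 0 passed, with a median log2 fold change of 0.08, 23 positive and 9 negative. Their median ratio was 0.18 in pair 2, against -0.37 for the mitosis genes, with a median GC content of 48.8% against 43.0%. In pairs 1 and 3 it was 0.02 and -0.00. MCM7, a subunit of the replicative helicase, stood at 13324, 24763 and 11256 with IL-10 and at 13558, 14890 and 11442 in control, and MCM2, another subunit, had a log2 fold change of 0.25 (-0.30 to 0.81). The difference between the 2 lists was not tested.

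Each of the 32 genes had at least 194 reads in every library, which gives a counting SD of 7.18% at most. Of the 32 genes, 15 overlap an annotated gene on the opposite strand, and whether counting used strand is not given in the sources used here, so reads of CCNA2 and EXOSC9, NUF2 and RGS5, or KIF20A and CDC23 could be shared. On the same strand, BUB1B overlaps the read-through gene BUB1B-PAK6 and CENPA the coding gene SLC35F6. CCNB2, NUSAP1 and TOP2A also overlap annotated genes on their own strand. Named pseudogenes exist for 7 genes, among them UBE2C, CDC20 and AURKA.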

How the data were processed

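Libraries came from 1 ug of total RNA, taken up in Trizol, by an Illumina TruSeq kit, per the labels' protocols. The authors deposited a table named as FPKM whose values are a normalised signal: all values (100%) of a library are multiples of a single step, to within 0.01 read, and those steps are the inverse of median-ratio size factors, which ran from 0.851 to 1.12. Of builds and tools, edgeR 3.18.1, GRCh38 and hg38 appear in the submitters' processing notes, without a stated role. Aligner, counter, annotation and strand use: not given in the sources used here.

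From the deposited signal, log2(value + 1) was fitted in limma 3.58.1 under R 4.3.3, trend on, for the 21946 genes that reached 1 in 3 or more libraries; p-values are two-sided and Benjamini-Hochberg adjusted. Fold changes are on that scale, which understates those of low genes. Tests on recovered reads used edgeR 4.0.16 (quasi-likelihood) and DESeq2 1.42.0. Symbols matched 26883 identifiers, and GENCODE 29 gave GRCh38 positions, lengths and GC content for 27052, with the principal transcript for each gene. The GC and length correction took from each library a fitted natural spline (4 degrees of freedom each) on transcript GC content and log2 length. The fits were tested on simulated data. Intervals from counts cover counting error only.

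Same-numbered libraries deviated together from their group means (correlations of 0.367, 0.605 and 0.726 across 11605 genes), and were treated as pairs. Between libraries of unlike number the correlations ran from -0.692 to 0.208, the highest for IL-10 replicate 3 with control replicate 1. Deviations from a group mean are tied to each other, so these correlations are not independent. The labels hold no more than the shared number, so the pairing rests on the values. The members, lists and tests were chosen with earlier results of these data known. Values in every library are given for the member of highest mean in each role, the 4 of smallest p in each direction and the largest ratio in each pair, and for most other members by choice. Further mitosis genes named are those of smallest p in each list and direction.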

Additional observations from a re-analysis of the deposited data

How the results depend on the processing

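The count of the 32 genes past the threshold was 0 in all 19 alternatives: other pseudocounts (0.1 and 10), filters (none, or at least 10), equal totals, quantile normalization, edgeR, DESeq2, the replicate block, the GC and length correction with and without the block, pairs 1 and 3 only with and without the block, and leaving out each library. The same held for the 108 further mitosis genes. Over all genes the count was 0 except in pairs 1 and 3 only with the replicate block, where it was 11. That fit held fewer libraries and 1 term more than the main fit, and the cause of the 11 was not tested. With the replicate block and every library kept, 0 genes passed (512 had an unadjusted p under 0.05), and no call changed. The median log2 fold change of the 32 genes, -0.10, lay between -0.20 (equal totals, which moved the median of all genes from 0.02 to -0.08) and 0.02 (pairs 1 and 3 only). Leaving out each library gave medians of -0.18 to 0.00, the lowest without IL-10 replicate 1 and the highest without IL-10 replicate 2. Of the 32 genes, 25 changed sign in at least 1 alternative, 21 of them without IL-10 replicate 2, and 7 in none; no gene was called in any. Counting error, which depth sets, gave the log2 ratio of a single gene in pair 1 an SD of 0.04 at the median gene and 0.13 at most.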
